A study of Drosophila melanogaster with 2 samples.

Results

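MicroRNA genes are described here as the precursor hairpins of the Drosophila melanogaster genome, and the question asked of each was whether the transcription factor Irbp18 had a binding site beside it in the embryo. Members were all genes with a transcript of biotype pre_miRNA in the Ensembl annotation BDGP6, on the arms X, 2L, 2R, 3L and 3R, which gave 258 precursors beside 17050 other genes on those arms. A further 4 precursors, on chromosome 4 or the ribosomal DNA, were left out. A precursor had a site when the summit of a peak, its highest point, lay within 2000 bp of the 5′ end of the hairpin on either side. This was so for 28 of the 258 precursors, through 32 sites of the 3424 on the 5 arms. The rule used the position of a peak and not its height.

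The sites come from chromatin immunoprecipitation followed by sequencing (ChIP-seq). Flies of the strain CG6272-GFP carried a transgene that makes Irbp18, formerly CG6272, as a fusion with enhanced green fluorescent protein (eGFP), and an antibody against GFP recovered the fusion with its DNA. The 2 samples, biological replicates of 1 group, were whole embryos 0 to 24 h old. A whole embryo holds many cell types and every embryonic stage, so a site cannot be assigned to a tissue or a time. No control library was used here and the design holds a single condition, so the results are positions, counts and levels, with no test between groups.

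Irbp18 is a basic leucine zipper protein of the C/EBP type, which binds DNA as a pair with a second such protein, such as Xrp1. A microRNA starts as a long primary transcript. In the nucleus Drosha and Pasha cut a hairpin out of it, Ranbp21 exports the hairpin, Dcr-1 with loqs trims it to a short duplex, and one strand is loaded into AGO1, where bases 2 to 8 of the microRNA, its seed, pair with target messages. The start of a hairpin is therefore not the start of transcription. Many fly hairpins lie in introns of protein-coding genes or in exons of long noncoding RNAs, called hosts below when the hairpin lies within the bounds of one of their transcripts. A site at the start of a same-strand transcript that spans the hairpin lies where, by the annotation, a transcript carrying the hairpin begins. Hosts can also lie on the opposite strand or have further starts of transcripts that do not span the hairpin.

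The first mature product that RefSeq lists is shown for a selection of the precursors with a site, so that they can be grouped by seed. Capitals mark the seed.
mir-279: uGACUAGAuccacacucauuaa
mir-92a: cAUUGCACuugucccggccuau
mir-282: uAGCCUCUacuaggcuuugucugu
mir-375: uUUGUUCGuuuggcuuaaguua
mir-277: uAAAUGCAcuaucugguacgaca
mir-34: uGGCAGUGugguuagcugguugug
mir-ban: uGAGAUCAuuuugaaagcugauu
mir-275: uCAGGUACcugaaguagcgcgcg
mir-305: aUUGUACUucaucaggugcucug
mir-287: uGUGUUGAaaaucguuugcac
The seeds of these 10 products differed from one another. The seed of mir-279 was shared with mir-286 and mir-996, that of mir-275 with mir-306, and that of mir-92a with mir-92b, mir-310, mir-311, mir-312 and mir-313. In each of these 3 seed families 1 member had a site. The nearest summit to mir-996 was that of mir-279 itself, at 2723 bp, and mir-286 was 8404 bp from its nearest summit. mir-306 lay 13775 bp away and mir-92b lay 4347 bp away.

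The reference sequence of 101 bases around the summit is shown for the sites on which the account turns, on the plus strand of the dm6 assembly. In the first 6 a capital marks the summit base. In the mir-287 window the capitals mark the mature microRNA itself, and in the mir-4911 window they mark the DRE word TATCGATA.
mir-279 (3R:29214411-29214511): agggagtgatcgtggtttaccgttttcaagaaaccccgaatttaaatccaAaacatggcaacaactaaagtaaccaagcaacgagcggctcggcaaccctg
mir-92a (3R:25647001-25647101): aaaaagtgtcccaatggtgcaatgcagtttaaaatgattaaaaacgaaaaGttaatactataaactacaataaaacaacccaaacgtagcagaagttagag
mir-9377 (X:12666561-12666661): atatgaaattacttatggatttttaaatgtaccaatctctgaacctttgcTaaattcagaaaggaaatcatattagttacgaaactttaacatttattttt
mir-282 (3L:3250232-3250332): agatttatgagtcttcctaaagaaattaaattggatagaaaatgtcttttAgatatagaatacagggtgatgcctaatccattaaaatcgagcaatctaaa
mir-375 (2L:856755-856855): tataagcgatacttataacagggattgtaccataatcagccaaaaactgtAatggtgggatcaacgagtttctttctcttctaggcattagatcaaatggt
mir-34 and mir-277 (3R:10100679-10100779): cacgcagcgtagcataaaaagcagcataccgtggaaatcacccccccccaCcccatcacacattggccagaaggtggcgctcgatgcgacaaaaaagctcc
mir-287 (2L:17574638-17574738): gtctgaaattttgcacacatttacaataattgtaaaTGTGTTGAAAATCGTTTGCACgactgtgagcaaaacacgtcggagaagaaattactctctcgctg
mir-4911 (3R:15837291-15837391): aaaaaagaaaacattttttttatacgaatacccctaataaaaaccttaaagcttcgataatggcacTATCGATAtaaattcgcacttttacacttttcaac
The windows are those of some of the stronger sites (mir-279, mir-92a, mir-9377, mir-282 and mir-375), of the site between mir-277 and mir-34, of mir-287 as the case of a summit inside a hairpin and of mir-4911 as an example of a searched word. That of mir-4981, which had a higher signal than mir-9377, is not shown. None of the first 6 held any of the 10 words searched, which are given with the motif counts.

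Of the 258 precursors, 10.9% had a site, with an exact Clopper-Pearson 95% interval of 7.33% to 15.3%. Intervals here and below cover counting error over genes or sites only, and neighbouring precursors are not independent. When precursors on the same strand within 10000 bp of each other were taken as 1 cluster, 25 of 201 clusters (12.4%) had a site. By the same measure a summit lay within 2000 bp of the 5′ end of 22.2% of the 13865 protein-coding genes, 13.3% of the 2496 long and other noncoding RNA genes, 17.6% of the 290 tRNA genes and 32.5% of the 268 snoRNA genes. The share among precursors was thus below the interval for protein-coding genes, 21.5% to 22.9%, and its interval held the 13.3% of long and other noncoding RNA genes but not the shares of tRNA and snoRNA genes. The difference was not tested. The median distance from a hairpin to the nearest summit was 9841 bp, against 9846 bp for protein-coding genes and 15538.5 bp for noncoding RNA genes.

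**Figure D1:**
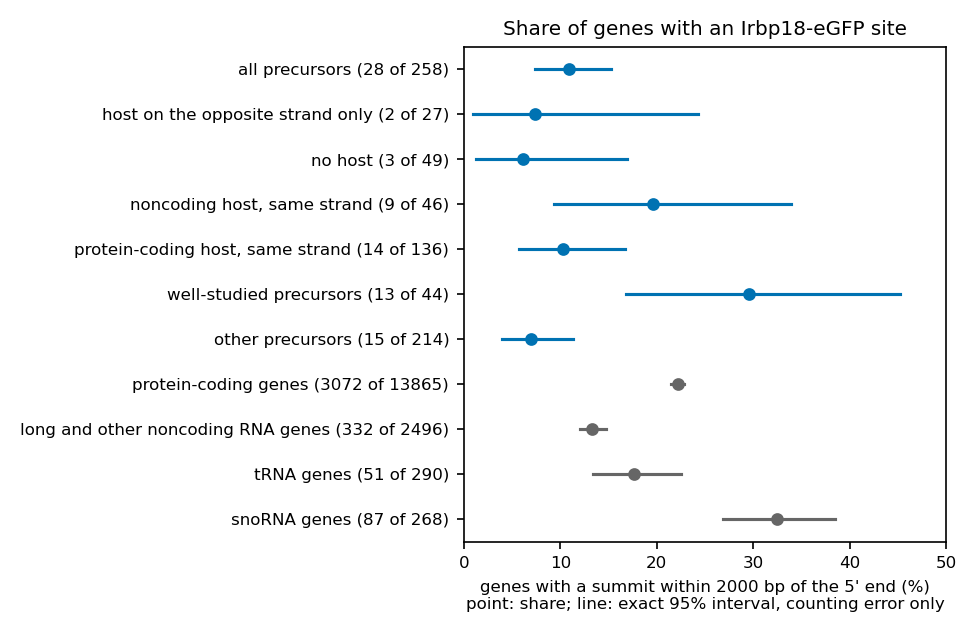
Share of genes with a summit within 2000 bp of the 5′ end, in percent, for all precursors, for precursors by host and by the list of well-studied microRNAs (blue), and for other gene classes (grey). Precursors with both kinds of host on the same strand count under the protein-coding host. Points are shares and lines are exact 95% intervals, which cover counting error only. All precursors stand at 10.9% and protein-coding genes at 22.2%.

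The count depended on the distance allowed. A summit lay within 200 bp of 3 hairpins, within 500 bp of 7, within 1000 bp of 18, within 5000 bp of 65 and within 10000 bp of 130. At the limit of 2000 bp, the members just inside were mir-2283 at 1545 bp, mir-281-1 at 1607 bp and mir-4943 at 1798 bp. Those just outside were mir-1013 at 2158 bp, mir-966 at 2263 bp and mir-4982 at 2404 bp. The list of replicate 1 alone placed a site near 26 precursors, and that of replicate 2 alone near 13. A site in both single lists was found for 12 precursors, all of which were among the 28.

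Precursors with a site were found on each arm: 10 of 55 on 2R, 7 of 58 on 3R, 5 of 56 on 2L, 3 of 31 on 3L and 3 of 58 on X. Of 46 precursors inside a noncoding RNA gene of the same strand but no protein-coding one, 9 had a site (19.6%, interval 9.36% to 33.9%). Precursors with both kinds of host on their strand were counted under the protein-coding host. Of 136 inside a protein-coding gene of the same strand, 14 had one (10.3%, 5.74% to 16.7%). Of 27 with a host on the opposite strand only, 2 had one, mir-4957 in an intron of Top1 and mir-9379 in the 3′ UTR of CG30485. Of 49 with no host, 3 had one, mir-305, mir-287 and mir-4981. The intervals of these classes overlap.

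Of the 32 sites, 18 were nearer to the start of another gene than to the hairpin, and in 13 of these the other gene was a host. The other 14 were nearer to the hairpin. The 13 included a start of Top1, on the strand opposite to mir-4957. At mir-92a and mir-282 the nearest host start was that of a transcript that does not span the hairpin. Of the 32 summits, 21 lay inside a host, in each case a host on the strand of the hairpin, and 13 were within 500 bp of a start of another gene. Those 13 are 40.6% of the sites, and of all 3424 sites 55.3% were within 500 bp of such a start. The shares inside a host or nearer to another gene have no counterpart over all sites, since the rule itself sets the sites beside hairpins. Summits lay upstream of the nearest hairpin at 21 sites and downstream at 11. There were 36 pairs of a hairpin and a site, since 8 precursors had 2 sites and 4 sites were near 2 precursors.

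**Figure D2:**
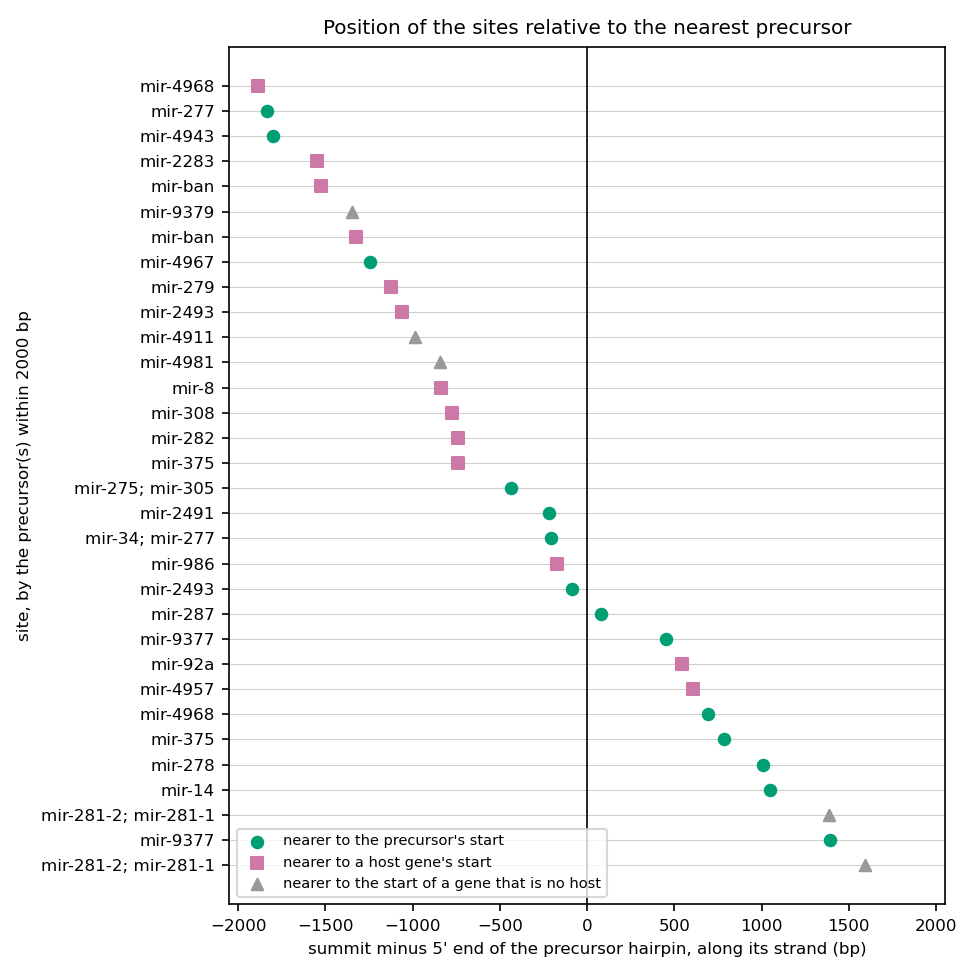
Distance from the 5′ end of the nearest precursor hairpin to the summit, in bp along the strand of the hairpin, for the 32 sites. Negative values are upstream. Host genes on either strand and any of their starts were counted. Colour and shape show whether the summit was nearer to the hairpin (14 sites), to a start of a host gene (13 sites) or to a start of a gene that is no host (5 sites). The 7 sites within 500 bp of a hairpin were nearer to the hairpin except that of mir-986.

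The signal value is the authors' measure of the height of a peak, whose scaling the sources used here do not state, and was compared within a list only. Over the 32 sites it ran from 2.73 to 523 with a median of 98.1, against a median of 121 over the 3424 sites of the list. A site was called shared when a summit of a replicate list lay within 100 bp. By this measure 13 of 32 sites (40.6%, interval 23.7% to 59.4%) were in the lists of both replicates, 3 in that of replicate 1 only, 1 in that of replicate 2 only and 15 in neither. Over all sites of the list the share in both was 47.2%. The 10 sites of highest pooled signal were all in both lists, and the 15 in neither had pooled values of at most 127.

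**Figure D3:**
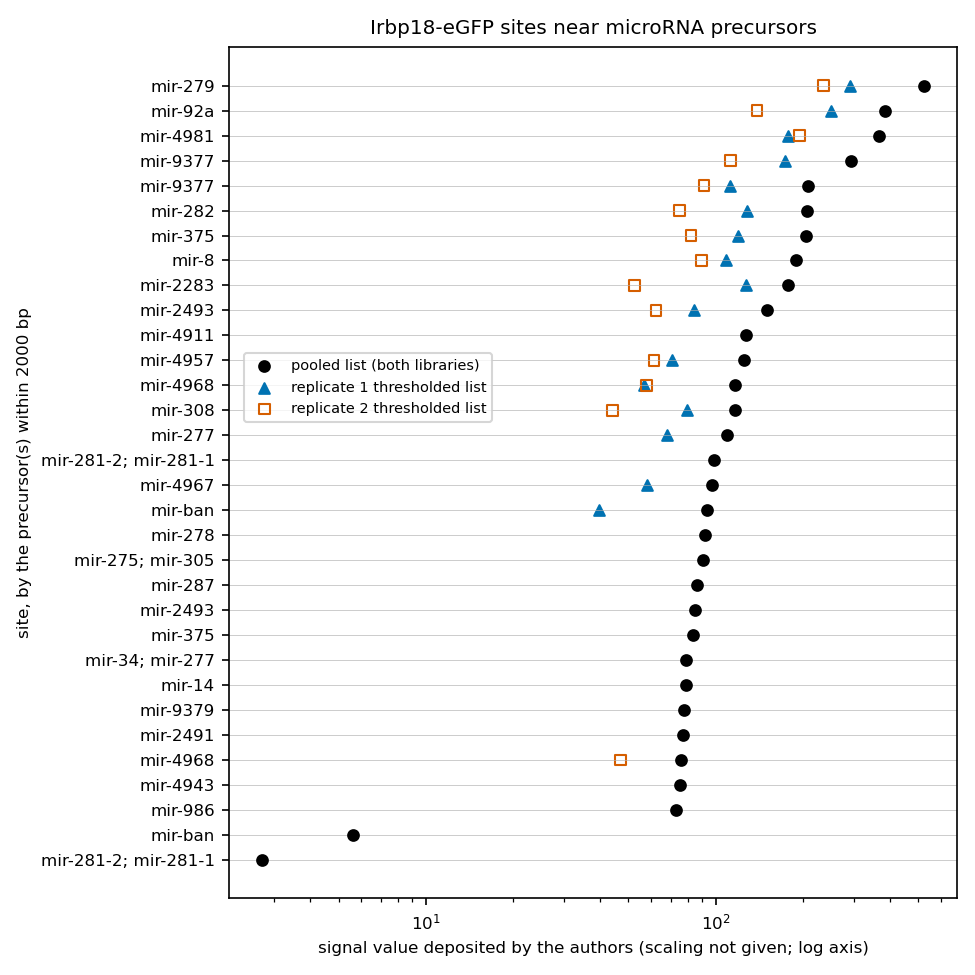
Signal value of the 32 sites in the pooled list (black circles) and, where the summit recurred within 100 bp, in the thresholded lists of replicate 1 (blue triangles) and replicate 2 (orange squares), on a log axis. The strongest site, at mir-279, stands at 523 in the pooled list, and 15 sites have a pooled value only.

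The strongest site of the set lay at mir-279 (3R:29215585-29215684), a microRNA that limits which sensory neurons form in the fly head. It ranked 155 of 3424 with a pooled signal value of 523, against 290 in replicate 1 and 236 in replicate 2. The summit was 1124 bp upstream of the hairpin and 101 bp upstream of the start of the noncoding RNA gene lncRNA:CR31044, which also holds mir-996. The summit was thus at the start of the host of both hairpins, although only mir-279 met the limit of 2000 bp. Its window is printed above.

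The hosts of mir-8, mir-375, mir-282 and bantam are also long noncoding RNAs, and each had a site between its start and the hairpin or just before its start. At mir-8 (2R:16831432-16831518), a regulator of growth and insulin signalling, the pooled signal was 190, with 109 in replicate 1 and 89.6 in replicate 2. The summit lay in an exon of lncRNA:CR43650, 93 bp from the nearest start and 836 bp upstream of the hairpin. At mir-375 (2L:857542-857632) the pooled signal was 205, with 119 in replicate 1 and 82.1 in replicate 2, and the summit lay 598 bp upstream of lncRNA:CR45345 and 737 bp upstream of the hairpin. All of these values recurred in both replicates. A second site at mir-375, 783 bp downstream of the hairpin start, had a pooled signal of 83.4 and was in neither replicate list.

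At mir-282 (3L:3251022-3251118) the pooled signal was 206, with 129 in replicate 1 and 75.2 in replicate 2. The summit lay in an exon of lncRNA:CR43626, 740 bp upstream of the hairpin and 312 bp from the nearest annotated start of that gene, which belongs to a transcript that does not span the hairpin. The start of the transcripts that span it was 692 bp from the summit. Bantam (mir-ban, 3L:642208-642288) promotes growth and blocks cell death. Its site, 1527 bp upstream of the hairpin in an exon of lncRNA:CR43334, had a pooled signal of 93.6. It was in the thresholded list of replicate 1 at 39.7 and not in that of replicate 2. Replicate 2 had a candidate there with a signal of 56.6, just beyond the limit of its thresholded list. Replicate 1 also had a peak of 53.9 at 492 bp from the hairpin that was not in the pooled list. A second pooled peak, 200 bp from the first, had a pooled signal of 5.60 and overlapped the first. A peak of such low height next to a taller one was also listed at mir-281-1 and mir-281-2, and 119 of the 3424 sites had a signal value under 20.

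Further hairpins in noncoding hosts had sites of lower signal, mostly far from the host's start. mir-277 (3R:10100022-10100121) and mir-34 (3R:10100936-10101034) lie in the same noncoding RNA, lncRNA:CR43459. mir-34 is known for its part in ageing of the fly brain and mir-277 for control of the breakdown of branched-chain amino acids. A site between them lay 707 bp downstream of the start of mir-277 and 207 bp upstream of mir-34, with a pooled signal of 79.0, and was in neither replicate list. A second site, 1832 bp upstream of mir-277, had a pooled signal of 109 and 68.2 in replicate 1 and was not in the list of replicate 2. Both lay in an exon, 6968 bp and 4429 bp from the nearest host start.

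mir-275 (2L:7425795-7425892) and mir-305 (2L:7425972-7426044) also share a site, 437 bp and 614 bp upstream of their hairpins. mir-275 lies in lncRNA:CR43857, whereas mir-305, which acts in intestinal stem cells, has no host. The site had a pooled signal of 90.7 and was in neither thresholded replicate list. Its candidates in the longer ranked lists had signal values of 49.1 in replicate 1 and 43.6 in replicate 2, with irreproducible discovery rates (IDR, a measure of how poorly a candidate recurs) of 0.200 and 0.0158, above the limit of 0.01 of the thresholded lists. At mir-14 (2R:9553762-9553824), which restrains cell death and fat storage, a site 1049 bp downstream had a pooled signal of 79.0 and was in neither replicate list, although replicate 1 had another peak, of 44.0, at 374 bp from the hairpin. Of these sites with values in no replicate list, that of mir-14 was also absent from the second pooled list. The sites of mir-4911 and mir-2491, described below, were absent from it too.

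Among hairpins in protein-coding hosts, the highest signal lay at mir-92a (3R:25646506-25646600), in the gene jigr1. The pooled signal was 383, with 251 in replicate 1 and 139 in replicate 2. The summit lay in an intron, 545 bp downstream of the start of the hairpin and 195 bp from a start of jigr1, which belongs to a transcript that does not span the hairpin. The start of the transcripts that span mir-92a was 7258 bp away. The site was thus at an internal start of the host and not at the start from which the hairpin is transcribed in the annotation.

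mir-9377 (X:12665217-12665268) had a pair of sites, both in an intron of Tis11, a gene for a protein that binds AU-rich messages and speeds their decay. The site 1394 bp downstream of the hairpin start had a pooled signal of 293, with 174 in replicate 1 and 112 in replicate 2. The site 450 bp downstream had 208, with 112 in replicate 1 and 91.1 in replicate 2. Both recurred, and both were nearer to the hairpin than to a start of Tis11, 6077 bp and 5133 bp away. mir-9377 was the only precursor with more than 1 site in both replicate lists.

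At 3 further hairpins in protein-coding introns the site lay at the start of the host and recurred in both replicates. At mir-2283 the pooled signal was 178, with 127 in replicate 1 and 52.4 in replicate 2, and the summit was 28 bp from the shared start of CG8176 and of Kdm3, a histone demethylase gene. At mir-2493 the pooled signal was 150, with 84.4 in replicate 1 and 62.2 in replicate 2, and the summit was 6 bp from a start of CG42788. At mir-308 the pooled signal was 116, with 79.9 in replicate 1 and 44.1 in replicate 2, and the summit was 10 bp from the start of RpS23, a gene of the small ribosomal subunit. In these the hairpins were 1545 bp, 1061 bp and 773 bp from the summit. A second site at mir-2493, in an intron 84 bp upstream of the hairpin, had a pooled signal of 84.9 and was in neither replicate list.

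mir-4957, on the strand opposite to its host, had a site 48 bp from a start of Top1, the DNA topoisomerase gene. Its pooled signal was 125, with 70.4 in replicate 1 and 61.3 in replicate 2. mir-4981 (2R:8015249-8015343) has no host, and its site, 845 bp upstream and 649 bp from the start of CG14762, had a pooled signal of 366, with 178 in replicate 1 and 195 in replicate 2. It was the highest signal at a hairpin outside any host, and it was nearer to a neighbouring gene. mir-4968, in an intron of Mob2, had sites at 1888 bp upstream with a pooled signal of 117 and at 690 bp downstream with 76.0. The first was in both replicate lists, at 56.6 in replicate 1 and 57.8 in replicate 2, and the second in that of replicate 2 alone, at 46.9.

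At 4 hairpins the start nearest to the site was that of an unrelated gene or of the opposite strand, with no peak within 100 bp in either thresholded replicate list. The site of mir-4911, with a pooled signal of 127, was 78 bp from a start of spn-E, a helicase gene of the piRNA pathway, and 224 bp from the start of the host ND-23. Replicate 1 had a thresholded peak with a signal of 78.3 just beyond that limit, 101 bp from the pooled summit and 886 bp from the hairpin. The site shared by mir-281-1 and mir-281-2, with a pooled signal of 98.9, was 80 bp from a start of SmD3, a gene of the splicing machinery, inside an intron of Oda. That of mir-9379, at 77.6, was 85 bp from a start of Echs1. These sites were between 987 bp and 1811 bp from the hairpins named.

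The closest approach of a site to a hairpin was at mir-287 (2L:17574610-17574702), which has no host. The summit was 78 bp downstream of the hairpin's 5′ end, and the peak covered all 93 bp of the hairpin. It was the only one of the 3424 summits that lay inside a precursor, and peaks overlapped the hairpins of 3 precursors in all, the others being mir-2493 by 95 bp and mir-986 by 5 bp. The pooled signal of the mir-287 site was 86.5, and no candidate lay within 100 bp of it even in the ranked list of either replicate. Signal at this hairpin therefore rests on the pooled lists.

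The remaining sites were of low signal. mir-986 lay 173 bp downstream of a summit with a pooled signal of 73.0, in a coding exon of its host Cyp4e2, 98 bp from a start of that gene. mir-2491 lay 219 bp downstream of a summit at 77.2 in introns of fog and CG42346, and mir-4943 had one 1798 bp upstream at 75.1 in an intron of CG5953. Replicate 2 had a different peak, of 50.9, at 967 bp from mir-4943. mir-4967 had a site 1244 bp upstream at 97.4, in an intron of Pka-R2, which was in the list of replicate 1 at 57.9. Replicate 2 had a candidate there of 38.6, with an IDR of 0.0116, just above the limit of 0.01. mir-278, a regulator of energy balance, had a site 1008 bp downstream at 91.8, in a coding exon of the neighbouring gene fus. Of these 5, that of mir-4967 was in 1 replicate list and the others were in neither.

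Whether each hairpin is made from its annotated host was not tested. A hairpin can be made from a host on its strand, so sites at the starts of host transcripts that span a hairpin were also counted. This count was chosen after the sites had been seen. Of 37 noncoding hosts on the strand of the hairpin, 5 had a summit within 500 bp of such a start (13.5%, interval 4.54% to 28.8%), where 4.73% of noncoding RNA genes did at any start. Of 128 protein-coding hosts, 28 had one (21.9%, 15.1% to 30.04%), where 16.9% of protein-coding genes did. Neither difference was tested. Among the 28, CG8176 and Kdm3, CG7029 and Usp12-46, and CG45092 and chk were pairs with the same summit and the same hairpin. Hosts are thus not all independent. In all, 33 precursors had a host with such a site.

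The 5 noncoding hosts were lncRNA:CR31044 of mir-279 and mir-996, lncRNA:CR43650 of mir-8, lncRNA:CR42651 of mir-10, lncRNA:CR43857 of mir-275 and lncRNA:Hsromega of mir-4951. At lncRNA:CR42651, whose hairpin mir-10 lies in the Hox complex 6779 bp away, the summit was 18 bp from the start with a pooled signal of 79.0, in neither replicate list. At lncRNA:CR43857 the summit was 192 bp upstream of the start with a pooled signal of 90.3 and 55.4 in replicate 2, and lay 2167 bp from mir-275. At lncRNA:Hsromega, the heat-shock RNA, it was 232 bp upstream with a pooled signal of 144, 79.1 in replicate 1 and 65.4 in replicate 2. Just beyond 500 bp stood lncRNA:CR43334 of bantam at 530 bp, with a pooled signal of 159, 80.3 in replicate 1 and 69.0 in replicate 2. This site was in both thresholded replicate lists and lay 14303 bp from the bantam hairpin. The one nearer to that hairpin was in the thresholded list of replicate 1 only. Its replicate 2 candidate, of 56.6, had an IDR of 0.0107, just above the limit of 0.01.

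Among protein-coding hosts, the highest signals stood at the starts of genes whose hairpins were too far from the site to meet the limit or met it by another site. The start of CG5953, host of mir-4943, had a pooled signal of 438, with 205 in replicate 1 and 237 in replicate 2, at 390 bp. That of MRP, a transporter gene and host of mir-9382, had 423, with 253 in replicate 1 and 168 in replicate 2, at 197 bp. That of spi, which encodes the ligand spitz of the EGF receptor and hosts mir-2a-1, mir-2a-2 and mir-2b-2, had 414, with 223 in replicate 1 and 189 in replicate 2, at 186 bp. The nearest of the spi hairpins was 5509 bp from that summit.

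**Figure D4:**
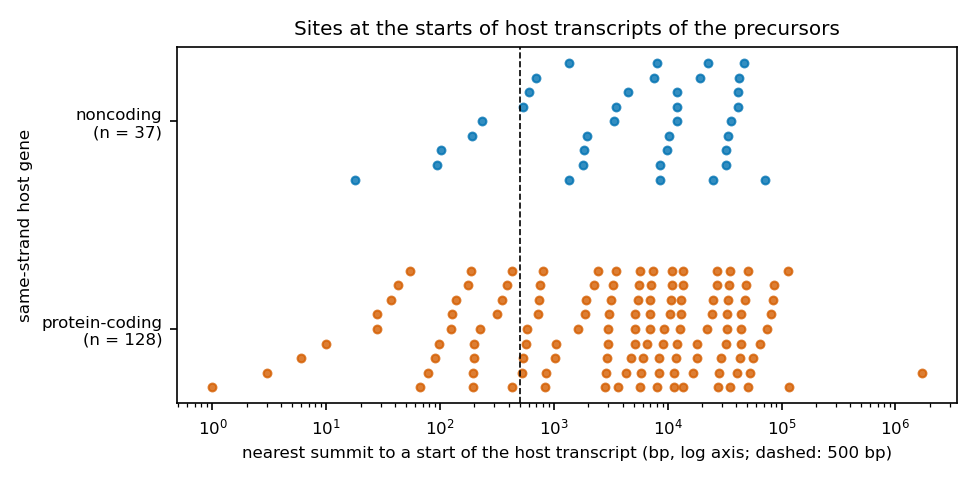
Distance from the start of each host transcript that spans a hairpin on the same strand to the nearest summit, in bp on a log axis, for 37 noncoding and 128 protein-coding hosts. Each point is 1 host gene, the vertical spread has no meaning, and the dashed line is at 500 bp. To its left lie 5 noncoding and 28 protein-coding hosts.

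A list of 44 well-studied microRNAs was counted apart. Of these, 13 had a site within 2000 bp (29.5%, interval 16.8% to 45.2%), namely bantam, mir-8, mir-14, mir-34, mir-92a, mir-275, mir-277, mir-278, mir-279, mir-282, mir-305, mir-308 and mir-375. Of the 214 others, 15 had one (7.01%, 3.98% to 11.3%). In the list of replicate 2 alone 6 of the 44 had a site, and in that of replicate 1 alone 13. The 13 fell into 11 clusters. Among precursors whose same-strand hosts were noncoding only, 9 of 24 listed ones had a site and 0 of 22 unlisted ones. A count of 0 allows a share of up to 13.6% by a limit of 3 counts. The unlisted mir-281-1 and mir-281-2, which had sites, also lie in the noncoding asRNA:CR46194 but were counted under their protein-coding host Oda. Inside protein-coding hosts on the same strand, 3 of 12 listed and 11 of 124 unlisted precursors had one. Whether the shares differ was not tested.

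Well-studied hairpins without a site included let-7, mir-100 and mir-125, which time development and share a host. They were 5535 bp, 6135 bp and 5254 bp from the nearest summit, which had a pooled signal of 306. The muscle microRNA mir-1 was 2454 bp from a summit of 77.3, and mir-9a, a regulator of sensory organs, was 4280 bp from one of 247. mir-33 was 3491 bp from a summit of 145, which lay 535 bp from the start of its host SREBP, the regulator of lipid synthesis. The nearest summits to mir-184, mir-7 and mir-124 were 33377 bp, 15152 bp and 8318 bp away, and that of mir-124 was the site of mir-287.

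Genes of the microRNA pathway were counted by a site within 500 bp of any start, as for the protein-coding genes, of which 16.9% had one. Of the 26 on the 5 arms, 7 did (26.9%, interval 11.6% to 47.8%). The 26 also held AGO2, Dcr-2 and r2d2, which belong to the small interfering RNA branch. Of these, r2d2 was among the 7. None of the nuclear processing genes drosha, pasha and Ars2 did, nor did Dcr-1 and loqs of the cytoplasmic step or AGO1, the effector. The nearest summit to pasha, at 1802 bp, was 15 bp from a start of the neighbouring gene Mnat9. The export gene Ranbp21 had a site 172 bp from its start with a pooled signal of 103 and 81.6 in replicate 1, which was not in the list of replicate 2.

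The chaperone genes Hsc70-4 and Hsp83, whose products help to load Argonaute, both had sites. At Hsc70-4 the pooled signal was 171 with 113 in replicate 1, and at Hsp83 it was 129, with 63.1 in replicate 1 and 77.0 in replicate 2. Of the genes that act on small RNAs or their targets, Nbr, which trims the 3′ ends of microRNAs, had 112 with 68.5 in replicate 1, and Pop2, a deadenylase, had 163, with 82.2 in replicate 1 and 78.8 in replicate 2. The sites at Hsp83 and Pop2 were in both replicate lists. The site at tral had 273, with 163 in replicate 1 and 112 in replicate 2, and lay nearer to a start of sti. That at r2d2, a partner of Dcr-2, had 24.7, was in neither replicate list and lay nearer to a start of Herp.

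Short words were searched in the 101 bases centred on each summit, on both strands. The 10 words were the C/EBP-ATF forms TGATGCAA and TGATGTAA, the C/EBP palindrome TTGCGCAA, the PAR form TTACGTAA, the CRE form TGACGTCA, the AP-1 form TGACTCA, the DRE word TATCGATA, the Zelda word CAGGTAG, the GAGA word GAGAGAG and the E-box CACGTG. The first 6 and the Zelda word were found at 0 of 32 sites, which allows a share of up to 9.38% by a limit of 3 counts and up to 10.9% by the exact interval, where between 0.117% and 0.935% of all sites held each of them. The DRE word was found at 1 site, that of mir-4911, against 3.48% of all sites. The GAGA word was found at 2, those of mir-287 and mir-14, against 0.818%, and the E-box at 2, those of mir-8 and mir-4943, against 1.05%. Within 100 bp of the summit, TGATGTAA and TGACGTCA were each found at 1 of the 32 sites, against 0.643% and 0.321% of all sites. At 32 sites such counts are too few to set these shares apart.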

How the data were processed

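Per the labels, the deposited peaks are on dm6. The sources used here do not give the aligner, the peak caller or the use of a control. The deposited lists hold a score, a whole number with a ceiling of 1000, and the authors' signal value for the height of each peak. The ranked lists also hold the −log10 of the IDR as deposited by the authors. Thresholded lists kept an IDR of at most 0.01. Read depth is unknown, so precision was given as exact 95% intervals over genes or sites.

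The conservative pooled list, made from both replicates, was the main list, and 30 of its peaks off the 5 arms were left out. Its summits were compared with the Ensembl release 115 annotation BDGP6.54. That annotation gives pre_miRNA as a transcript biotype, so genes were taken by their transcripts. Transposable elements and pseudogenes were left out of the other genes. Hosts and nearest starts were found with Python 3.11.15, numpy 2.4.6 and pandas 2.3.3, intervals with scipy 1.17.1 and figures with matplotlib 3.10.9. The search was tested on simulated positions. Sequences were read from the RefSeq release 6 genome and annotation. Of 27 pathway genes 26 lay on the arms. In each ranked list 8 further columns were not used.

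The members, lists and words were chosen with earlier results of these data known. Every precursor with a site and every pathway gene with a site was named, as were listed microRNAs by their distance. Names outside this rule were chosen after their values had been seen. Alternatives were other lists, scores, IDR limits, distances, host and start definitions, shared distances and word windows.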

Additional observations from a re-analysis of the deposited data

How the results depend on the processing

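Counts of precursors with a site, sites, sites nearer to another gene, sites inside a host and hosted-by-none precursors with a site were 28, 32, 18, 21 and 3. At 500 bp they were 7, 7, 1, 6 and 1. At 1000 bp the first 4 were 18, 17, 9 and 11. At 5000 bp they were 65, 82, 65, 34 and 7. An IDR limit of 0.05 gave 45 precursors, 52 sites, 36 inside a host and 7 with no host, and kept all 28. The top score alone gave 20 sites and 13 inside a host. The second pooled list gave 35 precursors, 25 of them among the 28, of which 9 had no host. The single replicate lists gave 13 to 26 precursors, 15 to 28 sites, 11 to 20 nearer to another gene, 9 to 12 inside a host and 1 to 6 with no host, each lower count from replicate 2. With 1 start per gene, 11 sites were nearer to another gene, and with protein-coding starts only, 12 were. A window of 100 bp raised the sites with any of the 10 words from 5 to 8 of 32, while the share of all sites rose from 7.65% to 14.9%. The cause of these moves was not tested beyond the fewer or further peaks each setting admits. Leaving out peaks under a signal value of 20, added after seeing the data, left 30 sites and 28 precursors. Noncoding hosts with a site at a start were 5, but 3 in the second pooled list and 8 at 1000 bp. No paired analysis was possible because there was 1 group and no test. Fewer reads in a library and fewer sites cannot be told apart without depth.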

Other observations

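The clustered hairpins mir-310, mir-311, mir-312 and mir-313, which share the seed of mir-92a, had no site in the main list, where the nearest summit was 6437 bp to 6857 bp away. The second pooled list held a peak with a signal value of 76.2 at 1209 bp from mir-310 and 1629 bp from mir-313. The list of replicate 1 held one of 57.1 at 1251 bp from mir-310, and that of replicate 2 held none within 2000 bp. With an IDR limit of 0.05 in the ranked conservative list the same 4 hairpins had a site. At that limit a peak also appeared 317 bp from mir-996, with a signal value of 67.6. It was separate from the mir-279 site at the start of the host they share, whose summit was 2723 bp from mir-996. A further peak, with a signal value of 48.8, lay 168 bp from mir-306, 318 bp from mir-79, 508 bp from mir-9b and 312 bp from mir-9c. In the second pooled list the summit nearest to any hairpin was 9 bp from mir-11182, with a signal value of 68.7. These values were looked up after the lists had been compared.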
